A study of Mus musculus with 54 samples.

Results

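This account follows 35 genes of the autophagy machinery, chosen by name as the core ATG genes and their cargo receptors, in primary microglia from C57BL/6 mice. All 35 were among the 16632 genes of the count table, and all 35 passed the filter on low counts, which left 13169 genes for testing. The study exposed microglia, which act as macrophages of the central nervous system, to alpha-synuclein (aSyn), the protein that aggregates in Parkinson disease, and then let loaded cells share a dish with unloaded ones. Donors had taken up fluorescently labelled aSyn (1 µM for 14 h), acceptors carried a violet cell dye (15 min of labelling), and both were recovered from the shared dish by cell sorting. The labels form 14 groups, all of the same strain. Untreated_Ctrl is untreated cells (6 libraries), aSyn_Donor is cells with aSyn and no co-culture (4 libraries), and Donors and Acceptors are the sorted cells after 0, 15, 30, 60, 150 or 300 min together. There were 4 libraries in each co-culture group, except 3 for donors at 0 and 60 min and 3 for acceptors at 0 and 300 min. The cells were shaken off an astrocyte layer grown from pooled brains of newborn mice, and the labels do not say whether the untreated and the aSyn_Donor cells went through the sorter. How the 0 min samples were handled is not given in the sources used here.

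Macroautophagy encloses cytoplasmic cargo in a double membrane, the autophagosome, and delivers it to lysosomes. The ULK1 kinase complex starts the process, the class III PI3-kinase complex around Beclin 1 marks the membrane, and enzymes related to the ubiquitin system couple proteins of the LC3 and GABARAP families to the lipid phosphatidylethanolamine. Cargo receptors such as p62, the product of Sqstm1, bind both ubiquitinated cargo and LC3, and in microglia p62 is known for a part in clearing aSyn taken up from outside. The members fall into 7 roles: 5 genes of the initiation complex, 6 of the nucleation complex and its regulators, 4 of membrane supply and phosphoinositide effectors, 7 conjugation enzymes, 5 of the LC3 and GABARAP families, 6 cargo receptors and their kinase Tbk1, and 2 of fusion and tethering.

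Libraries held between 7807389 and 15537493 counts. The number in a library title was taken as its experiment, of which there are 4, and same-numbered untreated libraries were summed, leaving 52 samples. Libraries of experiment 4 stood apart: the ribosomal precursor Rn45s took 13.4 to 22.3% of their counts and 1.42 to 13.5% in the others. The labels also give the experiments different passages, 3 for experiment 1, 1 for experiment 2, and 2 for experiments 3 and 4. The 7 microglia markers summed to between 1512 and 4820 CPM (counts scaled to the effective library size) over all samples, so the labelled cell type was present throughout. By group the sums were 2744 to 3929 CPM untreated, 1725 to 3813 CPM in aSyn_Donor, 2396 to 4289 CPM in acceptors and 1512 to 4820 CPM in donors. Markers of other cells were higher in some untreated samples: the 8 astrocyte markers summed to 11.3 to 139 CPM untreated, 11.2 to 29.3 CPM in aSyn_Donor, 7.59 to 42.3 CPM in acceptors and 8.79 to 35.3 CPM in donors. The 8 oligodendrocyte-lineage markers summed to 118 to 589, 80.5 to 248.3, 75.9 to 275 and 65.1 to 176 CPM in the same order, and the 5 neuronal markers to 3.13 to 30.0, 1.35 to 3.34, 0.684 to 21.5 and 0.282 to 9.17 CPM. None of these markers was at 0 in all samples, and their part in the differences from untreated cells below was not tested. In such bulk samples, fewer cells of a type and less RNA per cell cannot be told apart.

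Levels are given as CPM scaled with TMM factors, and differences as log2 fold changes from edgeR's quasi-likelihood test on the counts, fitted to all 14 groups. A gene was called at a Benjamini-Hochberg adjusted p under 0.05 over all 13169 genes. Same-numbered samples deviated together from their group means, so each result is also given from a fit that holds the experiment as a replicate block.

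The promoters of 28 of the 35 members could be matched by symbol in RefSeq sequence of the mouse build GRCm38.p6. Of these, 4 are shown as examples from genes described below: Sqstm1 and Tax1bp1 encode cargo receptors, Atg5 a conjugation factor and Vmp1 a membrane protein. Each line is the 250 bases before the start of transcription, 5′ to 3′ on the gene's strand, in lower case with any motif found in capitals.
Sqstm1, chr11:50210821-50211070, minus strand: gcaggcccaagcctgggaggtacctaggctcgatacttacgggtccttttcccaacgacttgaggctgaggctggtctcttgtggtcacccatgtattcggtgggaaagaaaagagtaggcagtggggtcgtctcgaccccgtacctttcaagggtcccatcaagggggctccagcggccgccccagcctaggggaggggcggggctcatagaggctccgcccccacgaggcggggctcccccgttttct
Tax1bp1, chr6:52713479-52713728, plus strand: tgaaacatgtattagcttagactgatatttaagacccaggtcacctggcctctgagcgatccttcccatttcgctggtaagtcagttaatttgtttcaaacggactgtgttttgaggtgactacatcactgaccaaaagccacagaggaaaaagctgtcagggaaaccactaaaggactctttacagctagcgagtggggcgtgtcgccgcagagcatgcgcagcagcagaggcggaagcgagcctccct
Atg5, chr10:44268089-44268338, plus strand: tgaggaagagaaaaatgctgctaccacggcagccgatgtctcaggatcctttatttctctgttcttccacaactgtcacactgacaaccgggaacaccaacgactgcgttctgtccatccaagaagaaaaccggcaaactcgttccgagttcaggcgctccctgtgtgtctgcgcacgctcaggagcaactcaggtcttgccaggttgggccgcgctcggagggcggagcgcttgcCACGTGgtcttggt
Vmp1, chr11:86683837-86684086, minus strand: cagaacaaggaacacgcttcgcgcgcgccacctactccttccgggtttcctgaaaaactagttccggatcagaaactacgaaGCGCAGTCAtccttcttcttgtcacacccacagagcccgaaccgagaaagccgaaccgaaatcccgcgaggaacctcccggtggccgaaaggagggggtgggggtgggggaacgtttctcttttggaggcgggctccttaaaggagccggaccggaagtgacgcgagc
The capitals in Atg5 mark CACGTG, the E-box core that MiT/TFE factors such as TFEB bind, and those in Vmp1 mark TGACNNNGC on the opposite strand, the core of the antioxidant response element bound by NRF2. On both strands, CACGTG was in 6.02% of 32851 promoter windows of this length and in 3 of the 28 matched members (Atg3, Atg5 and Atg7). TGACNNNGC was in 10.2% of windows and in 4 members (Atg13, Tax1bp1, Ulk2 and Vmp1), where Tax1bp1 has it in its second annotated promoter and not in the one shown. The AP-1 site TGANTCA, which can overlap TGACNNNGC, was in 6.75% of windows, the FOXO site TGTTTAC was in 3.17%, and neither was found in any member's window. None of the 4 motifs lies in the Sqstm1 window shown, or in the windows of Gabarapl1, Map1lc3b and Wipi2, which are also called below and are not shown.

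All members were expressed. The lowest count of any member in any sample was 49 reads, and mean levels in untreated cells ranged from 6.03 CPM for Wipi1 to 548 CPM for Sqstm1. These counts come from the 3′ ends of transcripts and were not divided by length, so no order of genes by level is drawn. Members not described by sample below had untreated means of 46.0 CPM for the initiation scaffold Rb1cc1, 22.9, 34.3, 21.7 and 13.8 CPM for the nucleation genes Pik3c3, Pik3r4, Atg14 and Ambra1, and 41.7, 30.5, 45.6 and 11.1 CPM for the conjugation genes Atg3, Atg4b, Atg7 and Atg10. Those of Gabarap and Gabarapl2 were 283 and 99.8 CPM, and those of the fusion genes Stx17 and Epg5 21.5 and 11.4 CPM. For each member, the share of the variance of log2 CPM over the 52 samples that lay between groups and the share between experiments were computed. The medians over members were 35.6% for group and 31.9% for experiment, and the experiment took the larger share in 15 of 35 members. Sqstm1 had 74.4% of its variance between groups and 18.2% between experiments. Tax1bp1 had the reverse, with 18.8% between groups and 78.1% between experiments, and Ambra1 and Rb1cc1 also had more than most between experiments (72.97% and 72.9%).

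Sqstm1 rose in cells exposed to aSyn and was the only member called in aSyn_Donor against untreated cells without the block. Sqstm1 was at 507, 698, 463 and 525 CPM in untreated cells of experiments 1 to 4, and at 1335, 2258, 2032 and 2433 CPM in aSyn_Donor cells. Every treated sample lay above every untreated one, and experiment 1 had the lowest treated level. The rise was 3.67-fold (log2 fold change 1.88 ± 0.28 SE, n = 4 against 4, edgeR adjusted p = 0.000116), and 3.54-fold with the replicate block (adjusted p = 2.80e-10). Sqstm1 was called when any experiment was left out. That is 1 of 35 members, against 2.50% of all genes tested. An unadjusted p under 0.05 was found for 8 members and for 2254 of the 13169 genes. DESeq2 called 2, Sqstm1 and Atg12. The share of all genes that DESeq2 called is not given here or below, so its member counts have no background. The median log2 fold change was 0.15 over the members and -0.04 over all genes. With the block, 10 members were called, 8 higher and 2 lower, where 19.2% of all genes were called (8.95% higher and 10.2% lower). The groups did not overlap for 4 members, Atg9a, Atg5 and Sqstm1 above and Ulk2 below, against 8.10% of all genes. In the blocked fit 1 of the 7 microglia markers was higher and 2 were lower, and 5 of the 8 astrocyte and 4 of the 8 oligodendrocyte-lineage markers were lower; none of these was called without the block. Of 4 neuronal markers tested, Map2 was lower with the block (adjusted p = 0.0029) and none was called without it. Of 3 endothelial markers tested, Pecam1 was called higher in both fits, from 0.297 ± 0.244 to 1.81 ± 0.666 CPM (SD, n = 4; edgeR adjusted p = 0.0389 without the block, 0.00327 with it, and 0.0749 without the block and without experiment 4). None of 3 fibroblast markers tested was called in either fit. Without experiment 4 the blocked fit called 8 members, where 1620 of 13079 genes were called. Of the 8, 6 were among the 10: Atg13, Atg101, Atg9a and Ulk2 were no longer called, and Gabarapl1 and Wipi1 were.

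**Figure D1:**
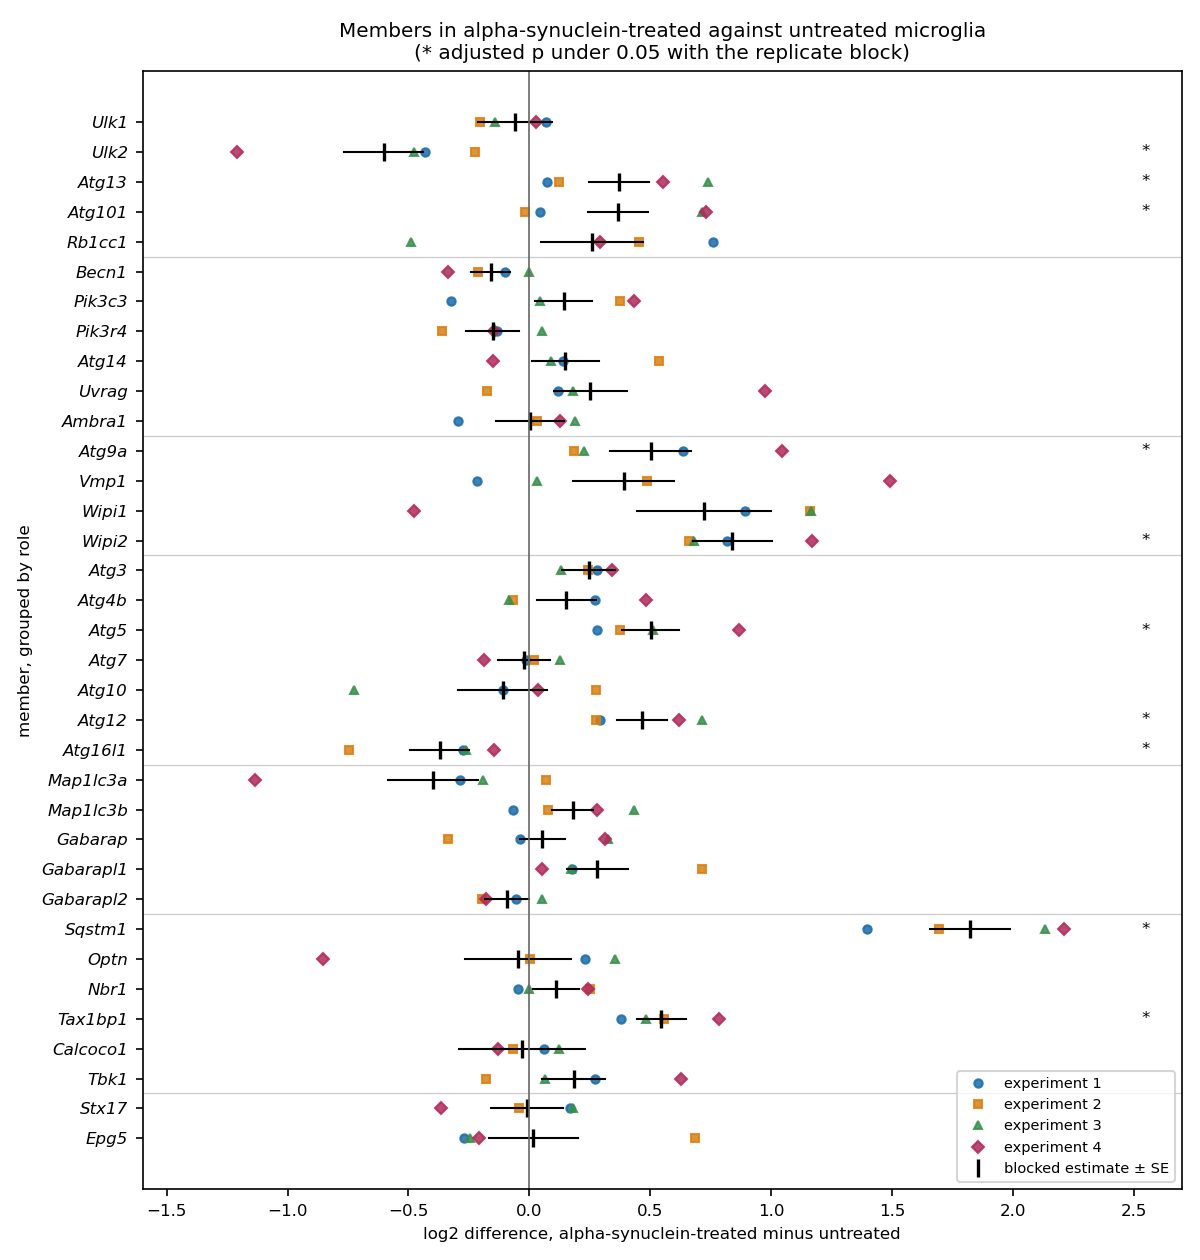
log2 difference between aSyn_Donor and untreated cells for each of the 35 members, grouped by role. Coloured points are the same-numbered differences of experiments 1 to 4, the black tick and line are the estimate with the replicate block ± SE, and asterisks mark adjusted p under 0.05 in that fit; Sqstm1 stands farthest right, with single experiments from 1.40 to 2.21, and experiment 4 is the farthest point for Ulk2 and Vmp1.

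Among the other receptors, Tax1bp1, whose product binds ubiquitinated cargo and LC3, was at 118, 112, 113 and 157 CPM untreated and 153, 165, 158 and 270 CPM with aSyn. Experiment 4 was highest in both groups, and the groups overlapped only through its untreated sample. The difference was 1.49-fold without a call (adjusted p = 0.302), and Tax1bp1 rose 1.46-fold with the block (adjusted p = 0.000150) and was called without experiment 4 in the unblocked fit as well (adjusted p = 0.0211). Optn encodes optineurin, a receptor in mitophagy and xenophagy, and was at 9.59, 8.59, 8.91 and 12.6 CPM untreated and 11.3, 8.599, 11.4 and 6.90 CPM with aSyn (fold 0.962, adjusted p = 0.938). The groups overlapped, and experiment 4 ran against the other experiments. Nbr1, a relative of p62, Calcoco1, a receptor for the endoplasmic reticulum, and Tbk1, the kinase that phosphorylates several receptors, had folds of 1.08, 0.997 and 1.16 with no call in either fit.

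Of the conjugation enzymes, 3 of 7 were called with the block. Atg12, the ubiquitin-like protein joined to ATG5, was at 64.0, 84.7, 55.4 and 71.8 CPM untreated and 78.5, 103, 90.8 and 110 CPM with aSyn. It was higher in each experiment although the groups overlapped, by 1.38-fold (log2 fold change 0.47 ± 0.14 SE, edgeR adjusted p = 0.0579 without and 0.00109 with the block; DESeq2 adjusted p = 0.0323). Atg5, the partner of ATG12, was at 50.5, 44.1, 47.6 and 55.6 CPM untreated and 61.2, 57.2, 68.1 and 102 CPM with aSyn. The groups did not overlap, the treated sample of experiment 4 was far above the rest, and the difference of 1.46-fold had an adjusted p of 0.248 without the block and 0.00216 with it (edgeR). Atg16l1, which directs the ATG12-ATG5 conjugate to membranes, went the other way, with 35.4, 44.7, 38.0 and 29.2 CPM untreated against 29.2, 26.6, 31.7 and 26.4 CPM. It was lower in all 4 experiments (fold 0.773, edgeR adjusted p = 0.107 without and 0.0291 with the block). The E1-like enzyme Atg7, the E2-like Atg3 and Atg10 and the protease Atg4b had folds between 0.934 and 1.19 and were not called in either fit.

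In the initiation complex, Atg13 and Atg101, which encode adaptor subunits that bind each other, moved in parallel. Atg13 was at 29.6, 39.6, 27.1 and 28.4 CPM untreated and 31.1, 43.2, 45.2 and 41.7 CPM with aSyn, and Atg101 at 40.2, 46.0, 32.0 and 28.0 against 41.4, 45.5, 52.6 and 46.5 CPM. In both genes experiments 3 and 4 were clearly higher and experiments 1 and 2 nearly level, and the groups overlapped. With the block both rose 1.29-fold (edgeR adjusted p = 0.0321 and 0.0339), and neither was called without it (0.185 and 0.335). The kinase genes differed from each other: Ulk1 was at 47.7, 43.7, 36.2 and 29.4 CPM untreated and 50.0, 37.9, 32.8 and 30.0 CPM with aSyn (fold 0.961, adjusted p = 0.929), whereas Ulk2 was at 56.6, 47.1, 56.9 and 56.9 CPM untreated and 41.9, 40.3, 40.8 and 24.5 CPM with aSyn. Ulk2 groups did not overlap, experiment 4 being lowest, and Ulk2 fell to a fold of 0.658 with the block (adjusted p = 0.00753) but was not called without it (0.183). Without experiment 4, and so with fewer samples, the blocked adjusted p was 0.0611.

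Of the membrane genes, Wipi2, which recruits ATG16L1 to sites marked by PI3-phosphate, was at 12.6, 13.2, 9.60 and 15.6 CPM untreated and 22.3, 20.9, 15.5 and 35.2 CPM with aSyn. Experiment 3 was lowest and experiment 4 highest in both groups, and the treated sample of experiment 3 lay just inside the untreated range. Wipi2 rose 1.79-fold with the block (edgeR adjusted p = 0.000317) and was not called without it (fold 1.84, adjusted p = 0.160). Atg9a, the transmembrane lipid scramblase carried on vesicles, was at 13.9, 20.3, 18.9 and 11.3 CPM untreated and 21.7, 23.1, 22.2 and 23.5 CPM with aSyn. The treated samples lay close together above all untreated ones, and the rise was 1.42-fold with the block (adjusted p = 0.0310; 0.124 without it). Reads of Atg9a may include another gene: in GENCODE M21, 37.5% of the 50-base words in the last 400 bases of its transcripts are shared with Gm29253. Vmp1, a scramblase of the endoplasmic reticulum, was at 134, 160, 154 and 103 CPM untreated and 115, 224.8, 158 and 289 CPM with aSyn, with the groups overlapping and experiment 4 giving most of the difference (fold 1.43, adjusted p = 0.418 without and 0.193 with the block).

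Members of the nucleation complex and of the LC3 and GABARAP families were not called in either fit. Becn1, which encodes Beclin 1, was at 77.3, 93.3, 77.3 and 82.04 CPM untreated and 72.1, 80.6, 77.2 and 64.9 CPM with aSyn (log2 fold change -0.16 ± 0.11 SE, edgeR adjusted p = 0.446). The lipid kinase Pik3c3, its partner Pik3r4, the targeting subunits Atg14 and Uvrag, and the regulator Ambra1 had log2 fold changes between -0.15 and 0.26. Map1lc3b, the LC3 gene most used as a marker of autophagosomes, was at 264.1, 241.5, 219 and 205 CPM untreated and 251.9, 254.8, 296 and 249.04 CPM with aSyn. These ranges overlapped, and the difference was 1.13-fold (adjusted p = 0.402). Gabarapl1 was at 134, 88.8, 122 and 168 CPM untreated and 151, 146, 137 and 174 CPM with aSyn, higher in each experiment but overlapping (fold 1.19, adjusted p = 0.603 without and 0.118 with the block). Map1lc3a was at 47.5, 38.3, 42.9 and 48.3 CPM against 38.9, 40.2, 37.5 and 21.9 CPM, where only experiment 4 was far below the untreated range (fold 0.783, adjusted p = 0.454). Gabarap and Gabarapl2 had folds of 1.03 and 0.936, and the fusion genes Stx17, a SNARE, and Epg5, a tether, 0.992 and 1.02.

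Acceptors, which were given no aSyn themselves, were compared with the same untreated samples at each time. These comparisons share the untreated samples with each other and with the one above, so their results are not independent. Acceptors also differ from untreated cells by the dye, the shared dish and possibly the sorting, which cannot be told apart from the contact with donors. Without the block, 0, 0, 1, 1, 2 and 0 of 35 members were called at 0, 15, 30, 60, 150 and 300 min, where 0%, 0%, 0.114%, 0.0683%, 0.137% and 0% of all genes were called. At the times with no call, 8, 8 and 3 members had an unadjusted p under 0.05 at 0, 15 and 300 min. Over all 13169 genes, 749, 839 and 721 did. DESeq2 called 0, 2 and 0 members at these times, again without a share over all genes. With the block, 4, 6, 6, 10, 7 and 3 members were called, all of them higher, against 0.387%, 1.07%, 1.56%, 1.94%, 2.32% and 0.311% of all genes called higher. In this fit the members' share is above these at each time, from 3 of 35 to 10 of 35. All genes tested include genes with lower counts than the members, and the members were chosen with earlier results of these data known. Whether the set differs from other genes was not tested. Groups did not overlap for 4, 3, 4, 5, 5 and 7 members, against 6.17%, 3.54%, 3.55%, 4.15%, 4.56% and 5.26% of all genes, and all of these were higher but for Pik3r4 and Atg7 at 300 min. The members' median log2 fold change without the block was between 0.08 and 0.19, and that of all genes between -0.04 and -0.02.

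Atg12 and Sqstm1 were called with the block at all 6 times. In acceptors Sqstm1 was at 860, 781 and 898 CPM at 0 min in experiments 1 to 3, and at 942, 1074, 1391 and 1854 CPM at 150 min in experiments 1 to 4. All acceptor samples lay above all untreated samples at each of the 6 times, and from 15 min on the samples of experiments 3 and 4 were above those of experiments 1 and 2. The fold over untreated cells was 1.54 at 0 min and 2.40 at 150 min, and Sqstm1 rose at 150 min in the unblocked test (log2 fold change 1.26 ± 0.27 SE, edgeR adjusted p = 0.0370; 0.107 without experiment 4). The blocked folds were 1.66, 2.00, 1.83, 2.12, 2.29 and 1.92 in order of time. At 300 min, where experiment 3 has no acceptor library, the samples were at 721, 850 and 1786 CPM, and without experiment 4 the fold change had a blocked adjusted p of 0.251; at 0 min it was 0.0524.

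The acceptor levels of Atg12 were 99.2, 94.2 and 103 CPM at 0 min and 113, 114, 109 and 118 CPM at 30 min. At 60 min they were 110, 109, 102 and 139 CPM, at 150 min 98.4, 106, 92.7 and 132 CPM, and at 300 min 92.9, 99.2 and 103 CPM. Every acceptor sample was above the highest untreated sample of 84.7 CPM. Atg12 rose 1.65-fold at 30 min (log2 fold change 0.72 ± 0.14 SE, edgeR adjusted p = 0.0175), 1.66-fold at 60 min (adjusted p = 0.0199) and 1.55-fold at 150 min (adjusted p = 0.0370) without the block. The call at 30 min was kept without experiment 4 (adjusted p = 0.0193), and those at 60 and 150 min were not (0.0666 and 0.122). No member was called without the block at 30 or 150 min when experiment 1, 2 or 3 was left out, or at 60 min when experiment 1 or 3 was.

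**Figure D2:**
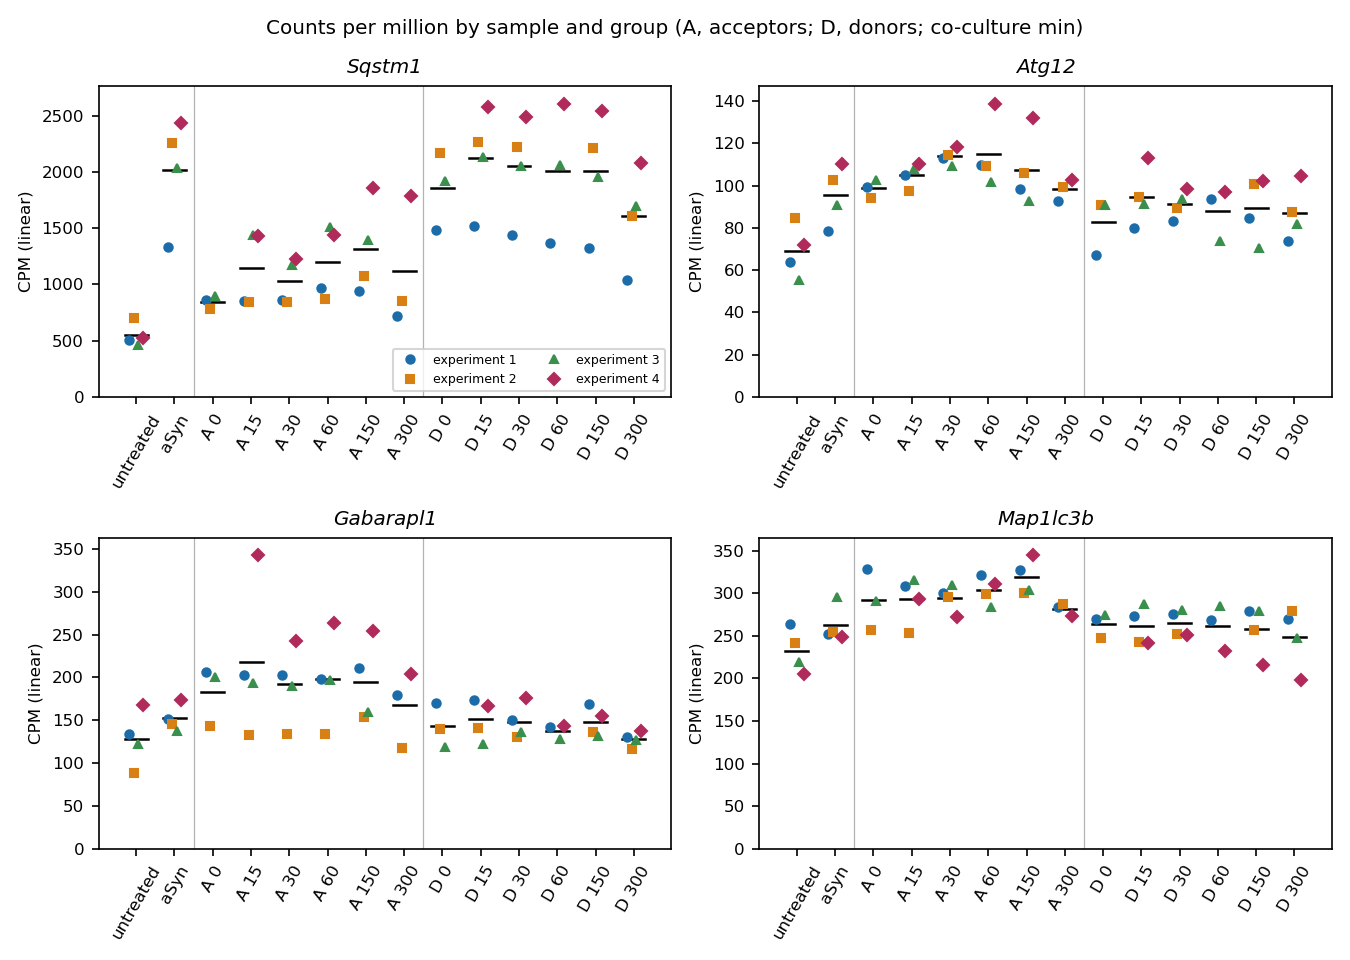
CPM of Sqstm1, Atg12, Gabarapl1 and Map1lc3b in each sample (vertical axes, linear, from 0) by group: untreated, aSyn_Donor, acceptors (A) and donors (D) by minutes of co-culture. Symbols and colours are experiments and black bars are group means; Sqstm1 is lowest in untreated cells (463 to 698 CPM), between 721 and 1854 CPM in acceptors and between 1044 and 2606 CPM in donors, whereas Atg12, Gabarapl1 and Map1lc3b have their highest samples among acceptors.

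The LC3 and GABARAP families were called in acceptors through 2 of their 5 genes. Gabarapl1 was at 207, 143 and 201 CPM at 0 min and at 203, 132, 193 and 343 CPM at 15 min. Experiment 2 was lowest there as it was in untreated cells, so the groups overlapped although every same-numbered difference was positive. Its blocked folds were 1.56 and 1.67 at these times and 1.51, 1.54 and 1.52 at 30, 60 and 150 min (edgeR adjusted p between 0.000876 and 0.0205), with no call at 300 min. Map1lc3b was at 309, 253.7, 315 and 294 CPM at 15 min, 300, 296, 309 and 272 CPM at 30 min, 322, 299, 284 and 311 CPM at 60 min and 327, 300, 304 and 345 CPM at 150 min. From 30 min on its acceptor samples lay above the highest untreated sample of 264.1 CPM. With the block Map1lc3b rose 1.26-fold at 15 min, 1.27-fold at 30 min, 1.31-fold at 60 min and 1.38-fold at 150 min (adjusted p = 0.0264, 0.0198, 0.00562 and 0.000943). Map1lc3a, Gabarap and Gabarapl2 were not called, with unblocked log2 fold changes between -0.03 and 0.22.

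Other acceptor calls came only with the block. Tax1bp1 was at 159, 170, 145 and 256.9 CPM at 15 min and 173, 140, 159 and 286 CPM at 150 min, with experiment 4 alone far above. With the block it rose 1.44-fold, 1.41-fold, 1.47-fold and 1.38-fold at 15, 60, 150 and 300 min (edgeR adjusted p = 0.00270, 0.00261, 0.000659 and 0.0261). Atg13 was at 45.0, 44.1 and 45.2 CPM at 0 min, 40.9, 41.3, 47.0 and 49.0 CPM at 15 min and 41.3, 46.7, 45.4 and 41.5 CPM at 60 min, above all untreated samples at each of these times. Its blocked folds were 1.45, 1.44 and 1.41 (adjusted p = 0.0371, 0.0167 and 0.0172), and none of these calls was kept without experiment 4, where the adjusted p was 0.0661, 0.133 and 0.0737. Nbr1 was at 93.8, 88.2, 104 and 87.1 CPM at 30 min, above its untreated 81.8, 77.2, 77.3 and 59.8 CPM, and rose 1.26-fold there and 1.27-fold at 60 min. Without experiment 4 neither was called (adjusted p = 0.124 and 0.174). Ulk1 was at 70.9, 62.2, 66.6 and 41.5 CPM at 30 min, higher than untreated in each experiment, and rose 1.53-fold (adjusted p = 0.0187). Wipi2 rose 1.54-fold at 60 min, a call lost without experiment 4, and 1.61-fold at 150 min, where it was at 23.2, 19.8, 13.3 and 27.0 CPM and experiment 3 lay within the untreated range. Atg9a and Wipi1, another PI3-phosphate effector, were called at 60 min (blocked folds 1.503 and 1.90) and Atg101 at 150 min (1.35), and these 3 calls were lost without experiment 4. In acceptors Becn1 had unblocked log2 fold changes between -0.12 and 0.00 and was not called in either fit. No member of the nucleation complex or of fusion was called in acceptors. Without experiment 4 the blocked fit called 2, 4, 6, 5, 6 and 0 members in order of time, all of them higher. Over all genes, 102, 96, 260, 169, 171 and 4 of 13079 were called higher. All 3 calls at 300 min (Atg12, Sqstm1 and Tax1bp1) and that of Map1lc3b at 15 min were among those lost, and Calcoco1 was gained at 30 min.

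**Figure D3:**
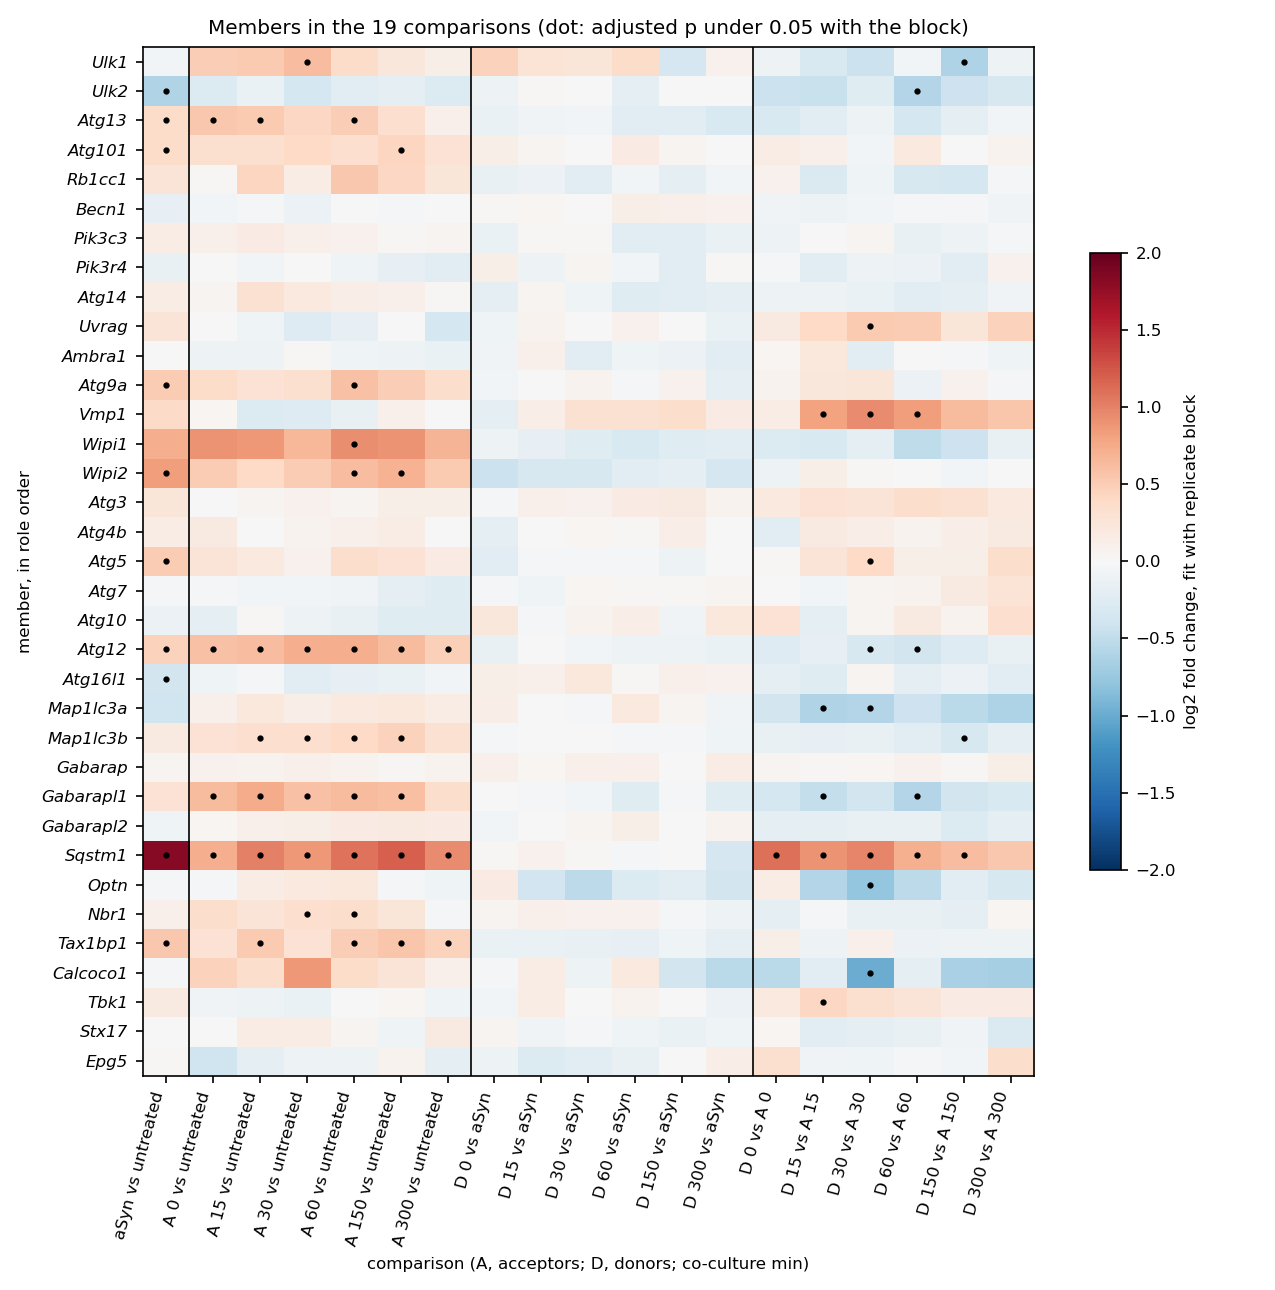
log2 fold change with the replicate block (colour, from -2 to 2) of the 35 members, in role order, in the 19 comparisons: aSyn_Donor and acceptors against untreated, donors against aSyn_Donor, and donors against acceptors at the same time. Dots mark adjusted p under 0.05 in that fit; the donor against aSyn_Donor columns hold no dot, the acceptor columns hold only red cells with dots, and the Sqstm1 line is red in the first block and in all columns of the last.

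Donors were compared with aSyn_Donor cells, which took up aSyn without a partner culture. No member was called at any of the 6 times by edgeR without or with the block, or by DESeq2. The number of members with an unadjusted p under 0.05 was 1, 0, 1, 0, 0 and 1 in order of time without the block and 2, 0, 1, 1, 2 and 3 with it. For all 13169 genes it was 344, 134, 140, 276, 119 and 366 without the block. With the block it was 725, 435, 410, 719, 406 and 1133. Over all genes, 0% were called at the first 5 times in either fit, and at 300 min 0.0304% were called without the block and 0.304% with it. These comparisons share their aSyn_Donor samples. Donors also differ from those samples by the shared dish and possibly by sorting, which the labels do not give for aSyn_Donor cells. Sqstm1 in donors stayed near the aSyn_Donor level, with 1482, 2170 and 1918 CPM at 0 min in experiments 1 to 3, 1521, 2266, 2136 and 2579 CPM at 15 min, and 1443, 2221, 2055 and 2483 CPM at 30 min. Its levels were 1367, 2062 and 2606 CPM at 60 min in experiments 1, 3 and 4, and 1321, 2216, 1953 and 2542 CPM at 150 min. Experiment 1 was lowest at each of these times, as it was before co-culture. At 300 min it was at 1044, 1604, 1695 and 2076 CPM, lower than aSyn_Donor in 4 of 4 experiments but overlapping, and the difference was not called (log2 fold change -0.33 ± 0.27 SE, edgeR adjusted p = 1.00 without and 0.547 with the block). Tests of any change over the 6 times called no member in donors or acceptors, where 1 member in each had an unadjusted p under 0.05 and DESeq2 called none. The same test of the donor-acceptor difference over time called no member by edgeR or DESeq2. At an unadjusted p under 0.05 there were 0 members, against 113 of 13169 genes. Over all genes, these tests called 0.0607%, 0.00759% and 0% without the block, and 0.577%, 0.137% and 0.0456% with it. In these tests the smallest blocked adjusted p was that of Ulk1 in donors (0.0553). Without experiment 4 the blocked test over time called 2 of 35 members in donors, against 207 of 13079 genes.

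At matched times, donors and acceptors were compared with each other. They differ both by the aSyn given to donors and by the dye of acceptors, which cannot be told apart. Without the block, no member was called at any time by edgeR, where 0.251%, 0.888%, 0.805%, 0.418%, 0.167% and 0.0304% of all genes were. There were 1, 8, 7, 8, 7 and 3 members with an unadjusted p under 0.05. Of all 13169 genes, 985, 1513, 1507, 1297, 1109 and 805 had such a p. DESeq2 called 1 member at 0 min and 1 at 30 min, also without a share over all genes. With the block, 1, 5, 8, 5, 3 and 0 members were called in order of time, against 4.28%, 9.57%, 10.8%, 6.70%, 5.19% and 1.38% of all genes. At 0 and 300 min the members' share was below that of all genes. These comparisons share their acceptor samples with those against untreated cells. Sqstm1 was higher in donors at the first 5 times, by blocked folds of 2.15, 1.87, 1.98, 1.63 and 1.54 (edgeR adjusted p = 0.000264, 0.000247, 8.72e-05, 0.0101 and 0.0167). At 300 min the fold was 1.46 with no call (adjusted p = 0.105). Donor and acceptor samples did not overlap for Sqstm1 at 0, 15 and 30 min, and overlapped later. Leaving out experiment 4 kept the 5 blocked calls of Sqstm1, and at 0 and 30 min it was then also called without the block (adjusted p = 0.015 and 0.0455).

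Vmp1 was the other member higher in donors at several times. At 15 min it was at 149, 224.8, 174 and 307 CPM in donors and 109, 120, 120 and 118 CPM in acceptors, and at 30 min at 193, 250.6, 185 and 319 CPM against 110, 124, 127 and 108 CPM. The acceptor samples lay close together below every donor sample at both times. At 60 min donors were at 145, 161 and 455 CPM in experiments 1, 3 and 4 and acceptors at 118, 135, 113 and 150 CPM, with experiment 4 far above the rest. The blocked folds were 1.74, 1.93 and 1.79 (edgeR adjusted p = 0.0124, 0.00278 and 0.0195), and without experiment 4 the first 2 calls were kept (0.00103 and 8.88e-05) and the last was not (0.0816). The microRNA Mir21a lies within Vmp1 on the same strand, and its own row held at most 0.614 CPM.

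Single calls in donors above acceptors were those of Tbk1, Uvrag and Atg5. Tbk1 at 15 min was at 52.9, 49.3, 61.2 and 112 CPM against 48.2, 48.5, 47.0 and 53.2 CPM, higher in each experiment but mostly through experiment 4 (blocked fold 1.34, edgeR adjusted p = 0.0347, and 0.288 without that experiment). Uvrag, a subunit of the PI3-kinase complex active in late steps, was at 53.0, 58.6, 68.8 and 81.02 CPM in donors and 43.5, 51.7, 45.9 and 39.0 CPM in acceptors at 30 min (blocked fold 1.44, adjusted p = 0.0204). No donor sample lay below an acceptor sample of Uvrag. Atg5 at 30 min had a blocked fold of 1.32 (adjusted p = 0.0226), with overlapping samples. Without experiment 4 the blocked adjusted p was 0.0533 for Uvrag and 0.103 for Atg5.

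Several members of the LC3 and GABARAP families and of the receptors were lower in donors than in acceptors with the block. Gabarapl1 had folds of 0.719 at 15 min and 0.665 at 60 min (edgeR adjusted p = 0.0142 and 0.00777), and Map1lc3b of 0.803 at 150 min (adjusted p = 0.0222), where donors were at 280, 256.9, 280 and 215 CPM and all lay below the acceptors. Map1lc3a at 30 min was at 39.2, 39.9, 38.8 and 17.7 CPM in donors and 51.0, 56.1, 40.1 and 49.5 CPM in acceptors, the donor of experiment 4 being far below the others. Its folds were 0.661 at 15 min and 0.669 at 30 min (adjusted p = 0.0353 and 0.0376). Atg12 was lower at 30 and 60 min (0.801 and 0.776; adjusted p = 0.0347 and 0.0389). All 7 of these calls were lost without experiment 4.

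Optn at 30 min was at 7.52, 6.53, 6.97 and 5.50 CPM in donors and 10.2, 8.94, 11.2 and 15.8 CPM in acceptors, with no overlap, and fell to a fold of 0.584 with the block (edgeR adjusted p = 0.0199). That too was lost without experiment 4 (0.0815). Calcoco1 at 30 min was at 27.9, 21.9, 18.8 and 6.97 CPM in donors and 36.2, 41.6, 45.4 and 20.7 CPM in acceptors, lower in each experiment (fold 0.503, adjusted p = 0.0105), and this call was kept without experiment 4 (0.00294). Of the kinases, Ulk1 at 150 min was at 27.4, 34.7, 32.5 and 23.5 CPM in donors, below every acceptor sample at 43.4, 42.1, 47.3 and 46.4 CPM (fold 0.650, adjusted p = 0.0119). Ulk2 at 60 min was at 40.1, 29.2 and 22.7 CPM in donors of experiments 1, 3 and 4 and 52.5, 61.4, 39.5 and 39.9 CPM in acceptors, which overlapped (fold 0.667, adjusted p = 0.0423). Both kinase calls were lost without experiment 4 (adjusted p = 0.0634 and 0.0733). That fit also gained calls: Map1lc3a and Ulk2 at 0 min, Tbk1 and Ulk1 at 30 min and Vmp1 at 150 min. In all it called 3, 2, 5, 1, 2 and 0 members in order of time, against 1450, 871, 1122, 588, 426 and 153 of 13079 genes.

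The change of donors from aSyn_Donor minus the change of acceptors from untreated cells was tested as well, a test chosen after the data were seen. Without the block no member was called at any time, where 2 genes in all were called at 150 min and 0 elsewhere. An unadjusted p under 0.05 was found for 2, 5, 7, 6, 5 and 3 members. The matching numbers over all genes were not computed, so these counts have no background and are not read as a result about the members. With the block, 0, 0, 1, 4, 5 and 3 members were called in order of time, against 0%, 0.0152%, 0.0380%, 0.364%, 0.957% and 0.737% of all genes. Every one of these differences was negative, that is, the change in acceptors was the more positive. Sqstm1 had differences of -1.12, -1.20 and -1.28 on the log2 scale at 60, 150 and 300 min (edgeR adjusted p = 0.0241, 0.00445 and 0.00389). Atg12 had -0.79, -0.83, -0.72 and -0.62 at 30, 60, 150 and 300 min, and Tax1bp1 -0.66, -0.64 and -0.64 at the last 3 times. Gabarapl1 was called at 60 min (-0.87) and Wipi2 and Map1lc3b at 150 min (-0.89 and -0.50). This difference holds both control groups, so it also contains the difference between aSyn_Donor and untreated cells. It holds the dye of acceptors too, and whether the control groups were sorted is not given, so it does not measure co-culture alone. At 0 min, where none was called, the blocked differences were -0.71 for Sqstm1, -0.73 for Atg12 and -0.43 for Tax1bp1. Those of Gabarapl1, Wipi2 and Map1lc3b were -0.63, -0.94 and -0.32.

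Experiment 4 gave the highest sample in all 12 groups that include it for Tax1bp1, Wipi2, Atg5, Ambra1 and Rb1cc1. It was the lowest of Gabarap in 11 groups and of Ulk1 and Atg101 in 10. For Map1lc3a it stood apart mainly in cells that had received aSyn, and for Vmp1 in those and in acceptors at 150 and 300 min. Vmp1 in experiment 4 was at 103 CPM untreated, the lowest untreated sample, 289 CPM in aSyn_Donor and between 307 and 455 CPM in donors. In acceptors it was at 118, 108, 150, 221 and 209 CPM from 15 to 300 min. The other acceptor samples of Vmp1 were at 128, 148 and 130 CPM at 150 min and at 119 and 132 CPM at 300 min. Map1lc3a in experiment 4 was at 48.3 CPM untreated, 21.9 CPM in aSyn_Donor, 17.7 to 23.7 CPM in donors and 44.8 to 56.8 CPM in acceptors.

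**Figure D4:**
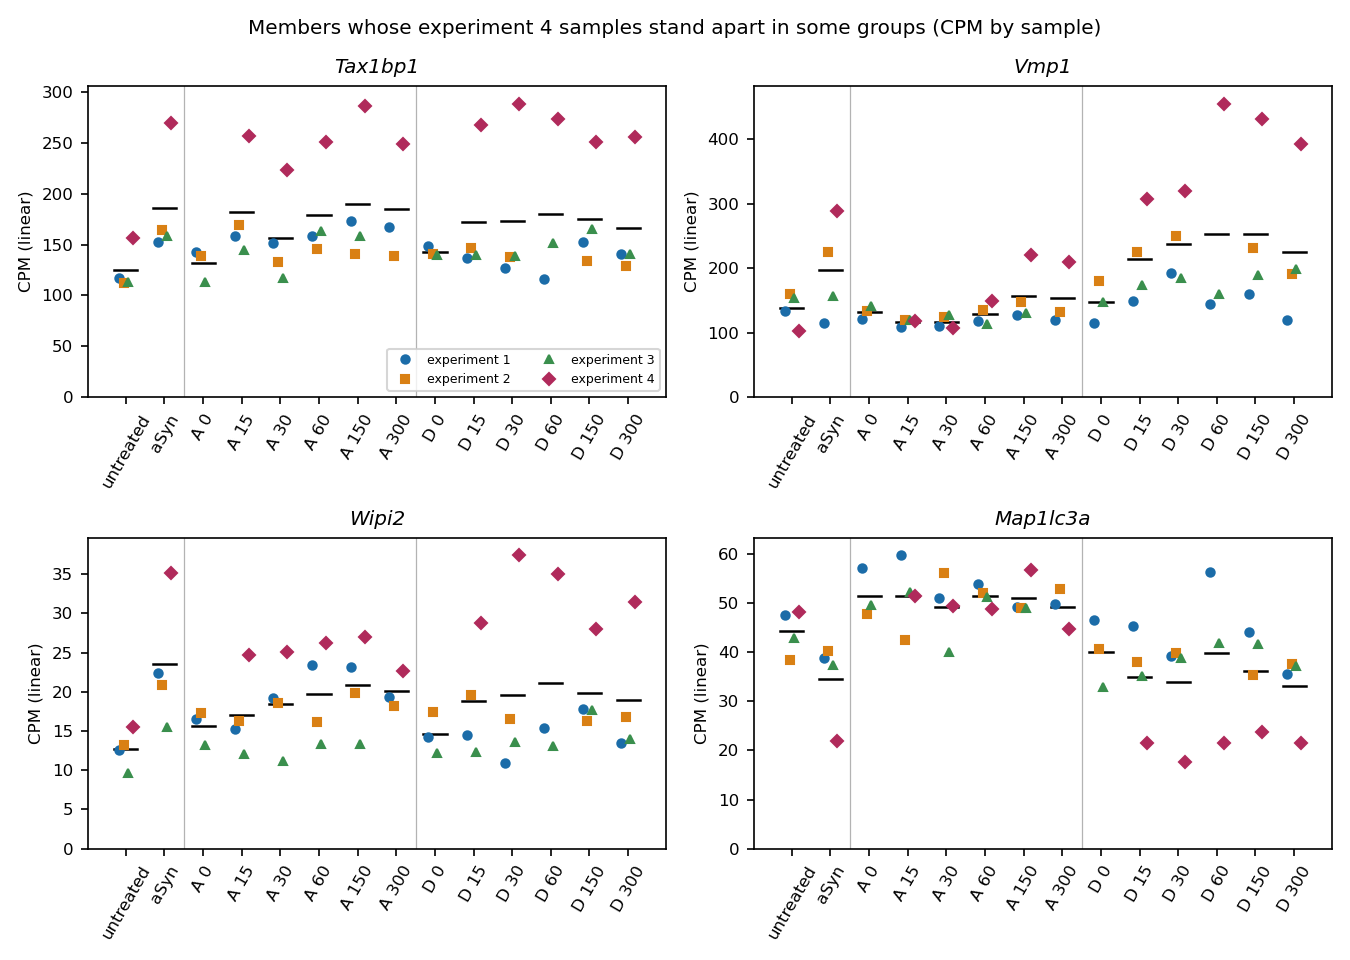
CPM of Tax1bp1, Vmp1, Wipi2 and Map1lc3a in each sample (vertical axes, linear, from 0) by group, with acceptors (A) and donors (D) by minutes of co-culture, experiments by symbol and colour, and group means as black bars. The diamonds of experiment 4 lie above the other samples for Tax1bp1 and Wipi2 in every group that has them. For Vmp1 and Map1lc3a they leave the others in aSyn_Donor and in donors from 15 min on, and for Vmp1 also in acceptors at 150 and 300 min.

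Genes around this machinery were counted in 5 further lists in aSyn_Donor against untreated cells, read against the same 2.50% of all genes called without and 19.2% with the block. Of 13 NRF2 target genes, 1 was called higher without the block, Osgin1, which rose from 10.2 ± 2.26 to 42.5 ± 17.4 CPM (SD, n = 4; log2 fold change 2.05, edgeR adjusted p = 0.00137). With the block 11 of the 13 were higher and 0 lower, and the list's median log2 fold change was 1.04 without the block. Of 35 tested MiT/TFE, mTORC1 and AMPK genes, 1 rose without the block, the transcription factor Tfec, from 8.73 ± 0.880 to 23.3 ± 4.58 CPM (adjusted p = 0.00477), and 5 were higher and 3 lower with it. The master regulator Tfeb was at 23.4 ± 5.28 and 24.2 ± 8.13 CPM (adjusted p = 0.939). Of 19 fusion genes, Tgm2, a transglutaminase, rose from 5.90 ± 4.24 to 83.5 ± 39.4 CPM (adjusted p = 0.00121), and the SNARE gene Stx7 fell from 151 ± 14.7 to 104 ± 13.6 CPM (adjusted p = 0.00737). With the block 2 of the 19 were higher and 2 lower. Of 20 further ATG and PI3-kinase genes, Bcl2, whose product binds Beclin 1, fell from 15.8 ± 3.82 to 9.07 ± 1.77 CPM (adjusted p = 0.0491, and 0.161 without experiment 4). With the block 2 of the 20 were higher and 2 lower. None of 14 further receptors was called without the block, and 1 was higher and 1 lower with it.

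Overlapping genes could add reads to some members, since the use of strand in counting is not given in the sources used here. Exons of 5 members overlap exons on the other strand of a gene in the table. For Sqstm1 that gene is Mrnip, which held at most 4.10 CPM in any sample, and for Becn1 it is Cntd1 with at most 3.75 CPM. For Gabarapl1 it is 1700101I11Rik with at most 1.72 CPM, for Map1lc3b Zcchc14 with at most 20.1 CPM, and for Atg9a Ankzf1 with at most 14.2 CPM. None of these 5 genes was called in aSyn_Donor against untreated cells in either fit.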

How the data were processed

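Gene counts of 54 QuantSeq 3′ libraries (50 bp single reads, per the labels' protocols) were used as the authors deposited them, as raw counts per gene. The submitters' processing notes name STAR, Partek, DESeq2 and the build mm10; the annotation and the use of strand in counting are not given in the sources used here. From these counts, same-numbered untreated libraries, which differed less from each other than from other untreated libraries (chi-square per degree of freedom 10.3 and 12.1 against 24.2 to 288), were summed, giving 52 samples. Genes were filtered with edgeR's filterByExpr (minimum count 10), scaled by TMM and tested with edgeR 4.0.16 (glmQLFit, glmQLFTest, R 4.3.3) over all 14 groups, with Benjamini-Hochberg adjustment at 0.05; log2 CPM used a prior count of 2. The fit with the experiment as replicate block followed the check that in each of the 19 comparisons every same-numbered pair of samples had deviations correlated at 0.199 or more, the pairing coming from the numbers in the titles. Alternatives were RLE scaling, no filter, DESeq2 1.42.0, only the groups compared, unsummed untreated libraries, no Rn45s, each experiment left out, and the block without experiment 4. Nothing says that numbers mark separate animals, so no p-value measures a spread between animals. Without the block, p-values rest on the spread between samples of a group and treat same-numbered samples of different groups as independent. With the block, they rest on the spread left after differences between experiments are removed. The test was also run on simulated counts, with results not given here. For the fit without the block these held no differences between experiments, so they do not check that fit on data like these. Values by sample were given for each member called in aSyn_Donor against untreated cells, for up to 5 members with the smallest p called in each other comparison, and for Sqstm1, Map1lc3b, Gabarapl1, Optn, Becn1 and Ulk1; from each further list, up to 3 called genes were named, and Tfeb was chosen after its values were seen. The members and all lists were chosen with earlier results of these data known. The result of 1 further list is not reported here.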

Additional observations from a re-analysis of the deposited data

Results flagged for a closer look

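Groups of 4 samples were examined for the 21 members whose values are given by sample, most of which were called in some comparison, and not for the other members. In 29 of these 210 sets, the highest or lowest sample lay apart from the other samples by Dixon's criterion, which chance meets in about 1 of 20 groups. Experiment 4 gave 21 of the 29. Its Tax1bp1 samples stood above the rest at 156.6 CPM untreated, 269.9 CPM in aSyn_Donor, 267.98 CPM, 288.8 CPM and 255.5 CPM in donors at 15, 30 and 300 min, and 251.1 CPM in acceptors at 60 min. Also above the rest in experiment 4 were Tbk1 at 76.12 CPM and 78.96 CPM in donors at 30 and 150 min and 62.84 CPM in acceptors at 30 min, Wipi2 at 27.95 CPM in donors at 150 min, and Atg5 at 75.51 CPM in acceptors at 15 min. Map1lc3a of experiment 4 was below the rest at 21.91 CPM in aSyn_Donor and at 17.72 CPM and 21.62 CPM in donors at 30 and 300 min, and above them at 56.79 CPM in acceptors at 150 min. Below the rest in experiment 4 were also Ulk2 at 24.53 CPM in aSyn_Donor, Atg101 at 36.01 CPM and 33.8 CPM in donors at 15 and 30 min, Becn1 at 68.13 CPM in donors at 15 min, Atg16l1 at 26.24 CPM in acceptors at 30 min and Atg9a at 17.76 CPM in acceptors at 60 min.

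The remaining 8 were spread over the other experiments. Map1lc3b was high at 296 CPM in aSyn_Donor of experiment 3, Nbr1 at 81.1 CPM in donors at 300 min of experiment 3, Uvrag at 60.85 CPM in acceptors at 150 min of experiment 2 and Atg16l1 at 37.94 CPM in acceptors at 60 min of experiment 1. Ulk2 was low at 47.1 CPM in untreated cells of experiment 2. In experiment 1, Becn1 was low at 68.94 CPM in donors at 300 min, Atg13 at 36.34 CPM in donors at 30 min and Vmp1 at 108.6 CPM in acceptors at 15 min.

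The change of donors from aSyn_Donor and that of acceptors from untreated cells differed in 13 tests with the replicate block. Each is given as donor change minus acceptor change in log2 units, from a test chosen after the data were seen. It holds both control groups and the dye of acceptors, and whether the controls were sorted is not given, so it does not measure co-culture alone. At 30 min this was -0.79 for Atg12. At 60 min it was -0.83 for Atg12, -0.87 for Gabarapl1, -1.12 for Sqstm1 and -0.66 for Tax1bp1. At 150 min it was -0.89 for Wipi2, -0.72 for Atg12, -0.50 for Map1lc3b, -1.20 for Sqstm1 and -0.64 for Tax1bp1, and at 300 min -0.62 for Atg12, -1.28 for Sqstm1 and -0.64 for Tax1bp1. None was called without the block.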

How the results depend on the processing

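Counts of called members were recomputed for 22 results. All 22 stayed within 1.5 times the reported count under RLE scaling and without Rn45s. The replicate block, which pairs the experiments, gave 10 members in aSyn_Donor against untreated cells, 4, 6, 6, 10, 7 and 3 in acceptors against untreated cells in order of time, and 1, 5, 8, 5 and 3 in donors against acceptors at 0 to 150 min; it changed no other count. The block without experiment 4 gave 8 for aSyn_Donor, 2, 4, 6, 5 and 6 for acceptors at 0 to 150 min, 3, 2, 5, 1 and 2 for donors against acceptors at 0 to 150 min, and 2 for the change over time in donors. DESeq2 called 2 for aSyn_Donor, 2 and 3 for acceptors at 15 and 60 min, and 1 each for donors against acceptors at 0 and 30 min. Its share over all genes is not given. Fitting only the groups compared left 0 for acceptors at 30, 60 and 150 min and gave 1 for donors against acceptors at 0 min. Without a low-count filter 0 remained for acceptors at 150 min, and with untreated libraries unsummed 3 were called for acceptors at 60 min. Leaving out each experiment in turn gave 1 to 2 for aSyn_Donor, 0 to 2, 0 to 1 and 0 to 0 for acceptors at 30, 60 and 150 min, and 0 to 1 and 0 to 2 for donors against acceptors at 0 and 30 min; 17 results had 0 in every such fit. The causes were not tested. Of single gene values under the alternatives, 685 stayed on their side of the threshold, 111 moved past it, 20 moved out and none changed direction. The replicate block moved 63 past the threshold and left 5 on their side. The block without experiment 4 moved 31 and left 37. Most of these genes were named because they were called, mainly with the block, so staying uncalled in the other fits says little about stability. Of the medians, 217 stayed within the spread and 11 moved. With 3 or 4 samples a group, the spread between samples limits what can be called. The biological coefficient of variation was 38.1% without the block and 21.0% with it, where differences between experiments are removed.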
